A study of Mus musculus with 18 samples.

Results

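The imprinted domain that runs from Kcnq1 to Cdkn1c was examined for open chromatin in myoblasts and myocytes of mouse skeletal muscle, MyoD-null and wild type. The domain was taken as chr7:150280000-150700000 (mm9), a window of 420 kb that holds Kcnq1, Kcnq1ot1 with its imprinting control region, and Cdkn1c. A peak was a member if its summit lay in this window. The 4 deposited peak lists held 127 such peaks among 400115 in all, and these merged into 45 of 141979 regions. The regions are numbered here from 1 to 45 in order of position.

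Open chromatin was measured by ATAC-seq, a method that marks accessible DNA by the insertions of a transposase. The groups were MyoD-null and wild-type myocytes, which had been in differentiation conditions for 24 h, and MyoD-null and wild-type myoblasts, the proliferating precursors, for which the labels give no treatment. Each group had 3 samples whose reads were merged before peaks were called, so each value below describes 1 list, has no error between replicates and allows no test. The labels give the genotype as MyoD knockout or wild type. They state neither strain nor age, nor whether the samples of a group came from separate animals. The series also has 6 RNA-seq samples of the C2C12 muscle line with and without CTCF knockdown, which were not analysed here.

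In both myocyte lists the genotype in the deposited label is the opposite of that in the peak names. The list labelled wild type carries peaks named MKO-DM, and the list labelled MyoD-null carries peaks named WT-DM. These lists go here by their deposited genotype, and values that depend on it are given under the other reading too. The names of both myocyte lists also bear a prefix that the myoblast names lack, so stage cannot be told apart from a processing step that may have differed.

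Kcnq1 encodes the pore-forming subunit of a voltage-gated potassium channel. Kcnq1ot1 is a long noncoding RNA that is transcribed antisense to Kcnq1 from the paternal allele, where it silences neighbouring genes in cis. Its promoter lies in the imprinting control region of the domain, which is methylated on the maternal allele. Cdkn1c encodes p57, an inhibitor of cyclin-dependent kinases that is expressed from the maternal allele and takes part in the exit of muscle precursors from the cell cycle. MyoD, the transcription factor that directs cells into the muscle lineage, induces Cdkn1c in mouse muscle cells, and this has been linked to a chromatin loop that depends on CTCF. In the RefSeq gene order of another build (GRCm38.p6), Kcnq1ot1 lies inside Kcnq1, no annotated gene separates Kcnq1 from Cdkn1c, and Slc22a18 and Phlda2 follow Cdkn1c. No annotation of mm9 was used here, so no peak is assigned to a gene, and the muscle identity of the cells was not checked at marker genes.

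The promoter of Kcnq1ot1 is shown because the imprinting control region of the window contains it. Of the 3 genes, Kcnq1ot1 was matched in the RefSeq promoter table, and Kcnq1 and Cdkn1c were not. The sequence runs from 250 bases before to 50 bases after the annotated start, on the minus strand at chr7:143296498-143296797 of GRCm38.p6. These coordinates cannot be set beside the mm9 coordinates of the peaks. Capitals mark CCAAT, the sequence bound by the factor NF-Y.

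Kcnq1ot1 promoter: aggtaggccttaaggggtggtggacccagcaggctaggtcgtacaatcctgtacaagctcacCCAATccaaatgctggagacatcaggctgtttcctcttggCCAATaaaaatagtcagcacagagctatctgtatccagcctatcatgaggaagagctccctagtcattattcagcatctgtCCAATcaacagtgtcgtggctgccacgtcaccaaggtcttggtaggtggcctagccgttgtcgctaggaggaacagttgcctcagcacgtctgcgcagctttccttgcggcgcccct

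CCAAT occurred 3 times on the printed strand, beginning 188, 148 and 67 bases before the start. Both strands were searched. Of 32851 promoters of this length in the table, 37.4% held CCAAT at least once and 3.37% held it 3 or more times. The E-box pattern CANNTG, which MyoD and related factors can bind, occurred 3 times, as CAAATG at 182 bases and CATCTG at 74 bases before the start and as CAGTTG from base 7 of the transcript. It was present in 72.3% of all promoters. CAGCTG, the E-box that MyoD prefers and a special case of CANNTG, was not among these letters, and 16.3% of promoters held it. The core of the CTCF motif was not found either and occurred in 8.61% of promoters. GGGCGG, the GC box of SP1 and related factors, was likewise not found and occurred in 35.7%. The promoter was 53.3% G and C, against a median of 52.7%, and held 9 CG dinucleotides, against a median of 7.

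The domain was populated in every list. It held 27 peaks in myocytes deposited as MyoD-null, 38 in those deposited as wild type, 34 in MyoD-null myoblasts and 28 in wild-type myoblasts. Genome-wide, the median number of peaks in windows of this length was 9, 13, 11 and 11 in the same order of lists. Windows varied widely, with quartiles of 1 and 24, 2 and 30, 2 and 27, and 2 and 26 peaks in that order. The domain was thus above the upper quartile in each list, but not far above it in wild-type myoblasts or in myocytes deposited as MyoD-null. Per 100000 peaks of its list, the domain held 30.6, 33.9, 33.4 and 28.5 peaks in that order, so the counts were closer once list length was considered. The peaks covered 3.42% of the window in myocytes deposited as MyoD-null, 4.87% in those deposited as wild type, 4.08% in MyoD-null myoblasts and 3.87% in wild-type myoblasts.

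Strength was read from the fold enrichment, the ratio of reads at the summit to the local background that the authors' peak caller gave. Its median over the domain peaks was 3.95 in myocytes deposited as MyoD-null, 4.86 in those deposited as wild type, 3.23 in MyoD-null myoblasts and 3.35 in wild-type myoblasts. The medians of the whole lists were 4.42, 4.80, 3.73 and 3.75 in the same order. The domain median was thus below that of the list in 3 lists and slightly above it in myocytes deposited as wild type. Between 14.3% and 21.1% of them reached the upper quartile of fold enrichment of their list. The highest domain peak had a fold of 7.51 in myocytes deposited as MyoD-null, 13.1 in those deposited as wild type, 6.43 in MyoD-null myoblasts and 7.07 in wild-type myoblasts.

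Depth limits what an absence means. The genome-wide background, recovered from the lists as a mean number of reads per base, was 6.34 in myocytes deposited as MyoD-null, 5.29 in those deposited as wild type, 8.54 in MyoD-null myoblasts and 8.18 in wild-type myoblasts. At that background the weakest listed summit had 17, 15, 21 and 20 reads, or a fold of 2.45, 2.55, 2.31 and 2.29, in the same order. A region missing from a list was not detectable at this depth and may still be open. In bulk samples such as these, fewer open cells and less signal per cell cannot be told apart.

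**Figure D1:**
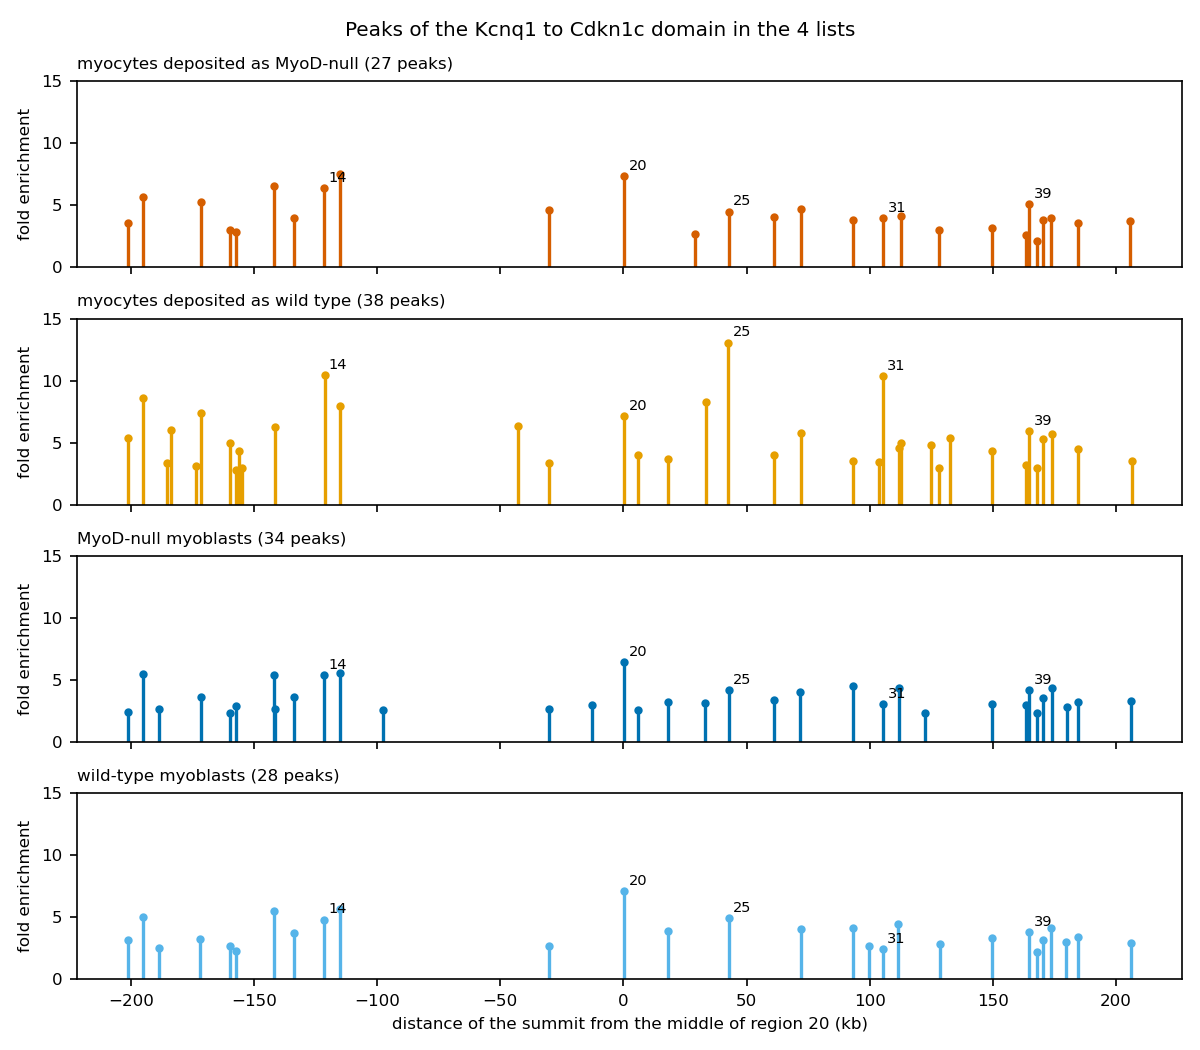
Fold enrichment (vertical axis) of every domain peak in the 4 lists against the distance of its summit from the middle of region 20 in kb (horizontal axis), 1 line and point per peak. Region 20 stood between 6.43 and 7.36 in all lists, whereas regions 14, 25 and 31 reached 10.4, 13.1 and 10.4 in myocytes deposited as wild type.

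Of the 45 regions, 22 had a peak in every one of the 4 lists, which is 48.9% (35.0 to 63.0 by the 95% Wilson method) against 45.9% of regions genome-wide. A further 14 regions were in a single list (31.1%, against 28.9% genome-wide). Of the rest, 4 were in 2 lists (8.89%, against 13.7%) and 5 were in 3 (11.1%, against 11.4%). The interval covers counting error only, here and below. The shares in all 4 lists and in a single list did not stand far from the genome-wide values, and no test was made.

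Peaks were spread unevenly along the window. The widest stretch without a peak in any list, 54.4 kb, lay between regions 16 and 17. It formed part of a longer gap of 84.5 kb in myocytes deposited as MyoD-null, 71.8 kb in those deposited as wild type, 67.2 kb in MyoD-null myoblasts and 84.5 kb in wild-type myoblasts. In contrast, the 70 kb from 150630001 to the end of the window held 8 peaks in each myocyte list, 9 in MyoD-null myoblasts and 8 in wild-type myoblasts. The first 70 kb held 7 peaks in myocytes deposited as MyoD-null, 11 in those deposited as wild type, 9 in MyoD-null myoblasts and 8 in wild-type myoblasts.

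Region 20, at 150481315 to 150482889, had the highest mean fold of the domain, 7.0 over the 4 lists. Its fold was 7.36 in myocytes deposited as MyoD-null, 7.16 in those deposited as wild type, 6.43 in MyoD-null myoblasts and 7.07 in wild-type myoblasts. Its summit had 120, 110, 113 and 114 reads in the same order, over local backgrounds of 15.4, 14.5, 16.7 and 15.3 reads per base. The 4 values were close to each other, with the highest 1.15 times the lowest. The 4 summits fell within 48 bp, and the peak was 1331 to 1547 bp wide. Besides region 45, it was the only region with a peak of at least 1000 bp in every list.

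Other regions with a high mean fold were less uniform. Region 14, at 150360391 to 150361055, had a fold of 6.40 in myocytes deposited as MyoD-null, 10.4 in those deposited as wild type, 5.39 in MyoD-null myoblasts and 4.79 in wild-type myoblasts. The myocytes deposited as wild type stood clear of the rest. Region 25, at 150524557 to 150525052, had folds of 4.50, 13.1, 4.19 and 4.90 in the same order of lists. Its summit in myocytes deposited as wild type had 89 reads over a background of 5.88, the highest fold in the domain, and the other 3 lists had 32, 39 and 44 reads. Despite that contrast, the summits of region 25 lay within 56 bp of each other.

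Region 15, at 150366172 to 150367300, had a higher fold in both myocyte lists than in both myoblast lists. It had a fold of 7.51 in myocytes deposited as MyoD-null and 7.92 in those deposited as wild type, against 5.52 in MyoD-null and 5.69 in wild-type myoblasts. Region 12, at 150339672 to 150341258, gave 6.55 and 6.25 in these myocytes, against 5.41 and 5.47 in these myoblasts. In both regions the myocyte lists were close to each other and above both myoblast lists. That order held at 57.7% of regions in all 4 lists genome-wide. At region 15 the summit had 69 and 66 reads in these myocytes, against 76 and 67 in these myoblasts. Its higher fold in the myocytes thus came with a lower local background and not with more reads. At region 12 the ratio of myocytes over myoblasts was 1.14 in wild type as deposited, below the genome-wide median of 1.27. In MyoD-null as deposited it was 1.21, above the median of 1.125. The highest summits of region 12, however, were spread over 579 bp. That of myocytes deposited as wild type was at 150340577, and those of the other lists were at 150339998 to 150340058. MyoD-null myoblasts had a second peak in region 12, with its summit at 150340696 and a fold of 2.64. The folds of region 12 thus do not all describe the same summit. Region 2, at 150286418 to 150287181, had folds of 5.65 in myocytes deposited as MyoD-null, 8.62 in those deposited as wild type, 5.44 in MyoD-null myoblasts and 5.0 in wild-type myoblasts.

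**Figure D2:**
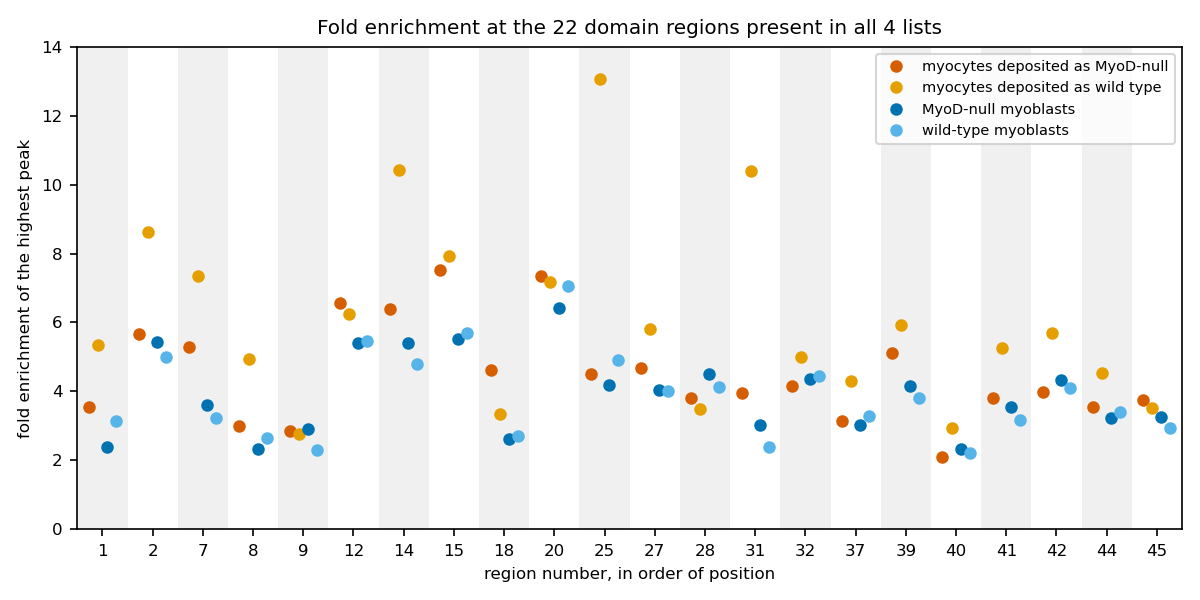
Fold enrichment of the highest peak (vertical axis) at each of the 22 domain regions found in all 4 lists, in order of position (horizontal axis), with 1 point per list. Myocytes deposited as wild type were highest at 16 of the 22 regions, most clearly at regions 25 and 31.

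Among the 22 regions in all lists, the highest fold was in myocytes deposited as MyoD-null at 4 regions, in those deposited as wild type at 16, in MyoD-null myoblasts at 2 and in wild-type myoblasts at none. Genome-wide the shares were 25%, 64.1%, 6.26% and 4.58% in that order. Both myocyte lists lay above both myoblast lists at 15 of the 22 regions (68.2%, against 57.7% genome-wide). Region 28, at 150575197 to 150575509, was the only region where both lay below, with 3.82 and 3.50 in myocytes deposited as MyoD-null and as wild type and 4.51 and 4.14 in MyoD-null and wild-type myoblasts. Its differences were small, and 4.1% of regions genome-wide had that order.

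At 6 of the 22 regions (27.3%) the fold in myocytes deposited as wild type was at least 1.5 times that in every other list, which held for 7.89% of regions genome-wide. This grouping was made after the values were seen. The 6 were regions 1, 2, 8, 14, 25 and 31. Region 31, at 150587241 to 150587900, varied most, with a fold of 3.95 in myocytes deposited as MyoD-null, 10.4 in those deposited as wild type, 3.02 in MyoD-null myoblasts and 2.40 in wild-type myoblasts. The highest value was 4.34 times the lowest, and the summits had 28, 84, 29 and 21 reads in the same order. The peak names call this list MyoD-null, so these values do not tell which genotype had the higher fold.

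Differentiation of wild-type cells was compared with the deposited genotypes, to see where the domain gained or lost open sites. Of the 38 domain peaks in myocytes deposited as wild type, 13 or 34.2% (21.2 to 50.1) had no overlap in wild-type myoblasts, against 30.0% of all peaks in that list. In the opposite direction, 4 of the 28 wild-type myoblast peaks or 14.3% (5.70 to 31.5) had no overlap in these myocytes, against 18.0% of all. Both shares were near those of the whole lists. Peaks without overlap were weaker, with a median fold of 3.98 against 5.27 for overlapping peaks of the same myocytes, and 2.85 against 3.60 in the myoblasts.

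At the 24 domain regions shared by these lists, the fold was higher in the myocytes at 22 and lower at 2. The median ratio of myocytes over myoblasts was 1.36, or 0.44 on the log2 scale, and it was 1.27, or 0.35, over all 77469 shared regions. A fold at least 1.5 times higher in the myocytes was found at 9 regions (37.5%, against 26.0% genome-wide), and none was at least 1.5 times lower (0.568% genome-wide). Region 31 had the highest ratio, 4.34, followed by region 25 with 2.67, region 7 with 2.27 and region 14 with 2.17. With genotypes read from the peak names, 3 of 27 myocyte peaks had no overlap in wild-type myoblasts (11.1%, against 15.5% of that list). In the opposite direction it was 4 of 28 (14.3%, against 22.3%). The median ratio under that reading was 1.13, with 3 of 24 regions at least 1.5 times higher in the myocytes (12.5%, against 9.37%) and none at least 1.5 times lower (0.688% genome-wide).

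In MyoD-null cells as deposited, few domain peaks of the myocytes lacked an overlap. Without overlap in MyoD-null myoblasts were 2 of 27 myocyte peaks, or 7.41% (2.06 to 23.4), against 16.2% of that whole list. Conversely, 8 of the 34 myoblast peaks lacked an overlap in these myocytes, or 23.5% (12.4 to 40.0), against 24.7%. Those 8 were weak, with a median fold of 2.73. The 2 counts were 5 of 27 and 3 of 26 with lists of equal length, for which the shares over all peaks are not given here. The count in these myocytes was 10 of 38 (26.3%, against 30.0% of the list) when the peak names set the genotype, and the count in the myoblasts was then 6 of 34 (17.6%, against 19.8%).

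The fold in these myocytes was above that in MyoD-null myoblasts at 19 of 25 shared regions and below it at 6. The median ratio was 1.15 (0.20 on the log2 scale), against 1.13 over all 72860 shared regions. Region 18, at 150451708 to 150452134, was the 1 region at which the myocytes were at least 1.5 times higher (4.0%, against 9.27% genome-wide). Its fold was 4.63 in myocytes deposited as MyoD-null and 3.34 in those deposited as wild type, against 2.61 in MyoD-null and 2.71 in wild-type myoblasts. The ratio, 1.77, was the largest in this comparison. It compares summits that did not coincide, at 150451898 in myocytes deposited as MyoD-null and at 150452046 in MyoD-null myoblasts. No shared region was at least 1.5 times lower in these myocytes (0.939% genome-wide). With genotypes read from the peak names, the median ratio was 1.42 and 9 of 27 regions were at least 1.5 times higher (33.3%, against 25.9%) and none at least 1.5 times lower (0.676% genome-wide).

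**Figure D3:**
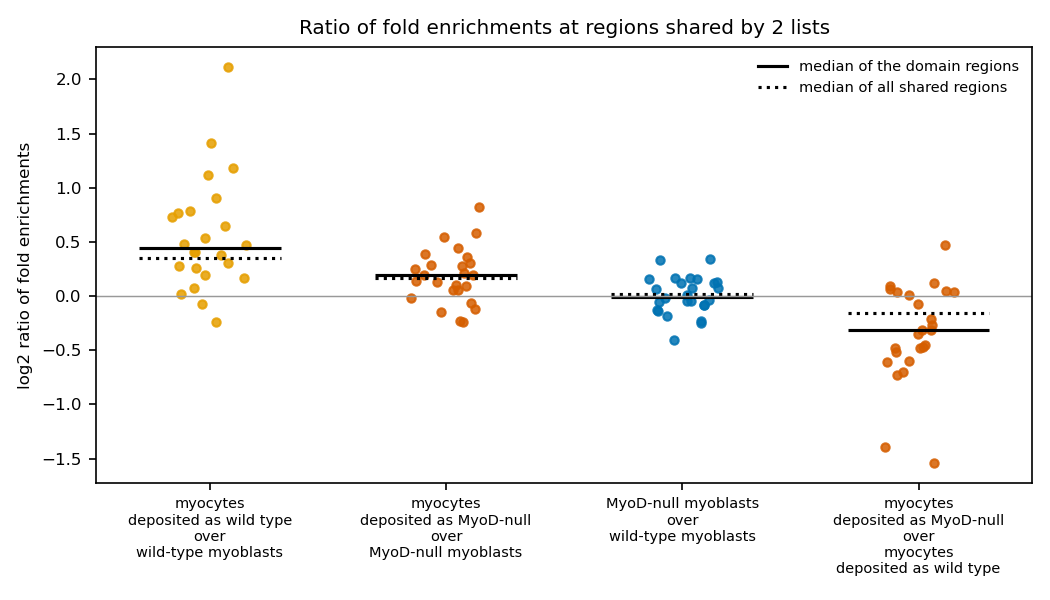
Log2 ratio of fold enrichments (vertical axis) at the domain regions shared by the 2 lists of each comparison (horizontal axis, genotypes as deposited), 1 point per region. Solid lines are domain medians of 0.44, 0.20, -0.0036 and -0.32, and dotted lines are medians over all shared regions of 0.35, 0.17, 0.016 and -0.16.

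Loss of MyoD in myoblasts was the comparison in which labels and peak names agreed on genotype. Folds were nearly equal there. At 26 shared regions the fold was higher in MyoD-null myoblasts at 13 and lower at 13, with a median log2 ratio of -0.0036, against 0.016 over all 82889 shared regions. None was at least 1.5 times higher (0.414% genome-wide) or lower (0.247% genome-wide). The ratios ran from -0.41 on the log2 scale at region 1 to 0.34 at region 9. Folds in MyoD-null and wild-type myoblasts were 2.37 and 3.15 at region 1, and 2.90 and 2.29 at region 9. The lower fold of each pair was near the lowest listed at the genome-wide background, 2.31 in MyoD-null and 2.29 in wild-type myoblasts. At region 1 the summits also differed, at 150280673 in MyoD-null and 150280889 in wild-type myoblasts. Of the MyoD-null peaks, 7 of 34 or 20.6% (10.3 to 36.8) had no overlap in wild-type myoblasts, against 14.8% of the list. The reverse was true of 2 of 28 wild-type peaks or 7.14% (1.98 to 22.6), against 12.8%.

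Between the 2 myocyte lists, 2 of 27 peaks deposited as MyoD-null, or 7.41% (2.06 to 23.4), had no overlap in the list deposited as wild type, against 13.1% of the whole list. Of the 38 peaks deposited as wild type, 12 or 31.6% (19.1 to 47.5) had none in the list deposited as MyoD-null, against 32.0%. With lists of equal length the counts were 7 of 27 peaks deposited as MyoD-null and 7 of 28 deposited as wild type. The shares over all peaks of the trimmed lists are not given here. The fold was lower in myocytes deposited as MyoD-null at 17 of 25 shared regions, and the median ratio was 0.803, against 0.895 over 75157 shared regions. It was at least 1.5 times lower at 6 regions (24.0%, against 13.6% genome-wide) and at least 1.5 times higher at none (2.44% genome-wide). By the peak names, the same ratios belong to wild-type over MyoD-null myocytes.

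Regions missing from at least 1 list numbered 23, and the largest class had a peak in myocytes deposited as wild type and in no other list. That class held 9 of the 45 regions (10.9% to 33.8% by the Wilson method), against 16.3% of regions genome-wide. Of these, 5 lay between 150296732 and 150327174 (regions 4, 5, 6, 10 and 11) and 3 between 150585774 and 150614777 (regions 30, 34 and 36). These 2 runs were chosen after the values were seen, and they also held 3 and 2 regions present in all 4 lists. The strongest of the 9 regions was region 17, at 150438965 to 150439490. It had a fold of 6.36 with 39 reads at the genome-wide background of 5.29. Region 5, at 150298221 to 150298800, reached 6.05 with 53 reads, and region 36, at 150614319 to 150614777, reached 5.40 with 42 reads. No region was shared by the myocyte lists and absent from both myoblast lists, a class that held 3.42% of regions genome-wide. Likewise none was found in exactly the myocytes deposited as wild type and wild-type myoblasts (1.81% genome-wide), or in exactly the myocytes deposited as MyoD-null with either MyoD-null (0.816%) or wild-type myoblasts (0.854%).

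Region 24, at 150515192 to 150515796, was listed in myocytes deposited as wild type with a fold of 8.27 and in MyoD-null myoblasts with 3.16. It was not listed in myocytes deposited as MyoD-null or in wild-type myoblasts. Its summits had 64 and 35 reads in these lists, and 8.27 was the highest fold of any region missing from a list. Region 21 had the same pair of lists, with folds of 3.98 and 2.61. By the peak names both lists are MyoD-null, and 2.21% of regions genome-wide had this pattern.

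The other classes held 1 to 3 regions each. MyoD-null myoblasts alone held regions 19, 16 and 33, with folds of 2.93, 2.56 and 2.36 (6.67% of the domain, against 5.45% genome-wide). Both myoblast lists, and neither myocyte list, held regions 43 and 3, with folds of 2.83 and 2.63 in MyoD-null and 3.00 and 2.52 in wild-type myoblasts (4.64% of regions genome-wide). Region 23 was found in myocytes deposited as MyoD-null alone with a fold of 2.73 (3.42% genome-wide), and region 29 in wild-type myoblasts alone with 2.70 (3.74% genome-wide). Region 13 was absent only from myocytes deposited as wild type and had 3.95 in the other myocytes, 3.61 in MyoD-null myoblasts and 3.72 in wild-type myoblasts (2.97% genome-wide). Wild-type myoblasts alone lacked regions 26 and 38 (1.63% genome-wide). Region 26 had folds of 4.09 and 3.98 in myocytes deposited as MyoD-null and as wild type, and 3.35 in MyoD-null myoblasts. Region 22 was missing from myocytes deposited as MyoD-null only (4.87% genome-wide), and region 35 from MyoD-null myoblasts only (1.98%).

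**Figure D4:**
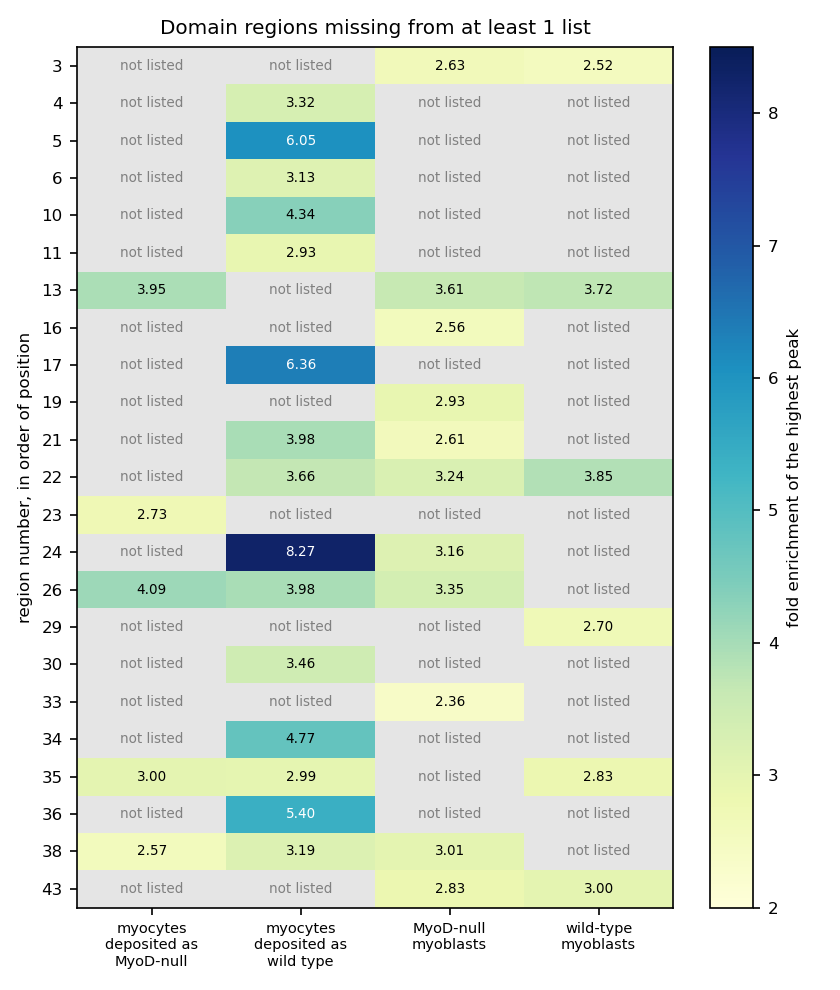
The 23 domain regions missing from at least 1 list (rows, in order of position) with the fold enrichment of the highest peak in each list (columns, colour scale and printed value), grey where the list has no peak. The column of myocytes deposited as wild type holds 9 regions found nowhere else, up to 6.36 at region 17, and the highest value, 8.27, at region 24.

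A dense run of 7 regions, numbers 38 to 44, occupied the 21.5 kb from 150645400 to 150666868. It was chosen for description after its values were seen. Of these, 5 were present in all lists. Region 39, at 150646539 to 150647247, had the highest mean fold of the run, with 5.12 in myocytes deposited as MyoD-null and 5.92 in those deposited as wild type, against 4.14 in MyoD-null and 3.79 in wild-type myoblasts. Both myocyte lists were above both myoblast lists. Its summits had 92, 94, 89 and 72 reads in the same order and lay within 75 bp.

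Region 41, at 150652177 to 150652698, had folds of 3.80 and 5.27 in myocytes deposited as MyoD-null and as wild type, and 3.56 and 3.18 in MyoD-null and wild-type myoblasts. Region 42, at 150655780 to 150656235, gave 3.99 and 5.69 in these myocytes and 4.32 and 4.10 in these myoblasts. In both myoblast lists the fold of region 42 was thus above that of region 39. Region 39 had more reads at the summit, with 89 in MyoD-null and 72 in wild-type myoblasts, against 65 and 63 at region 42. Its local background was also higher, at 20.7 and 18.2 against 14.3 and 14.6 reads per base. At region 42 only the myocytes deposited as wild type stood above the myoblasts. Region 38, at 150645400 to 150645926, had a fold of 2.57 in myocytes deposited as MyoD-null, 3.19 in those deposited as wild type and 3.01 in MyoD-null myoblasts, and was not listed in wild-type myoblasts.

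The local background, against which the peak caller measures the fold, was high at the start of this run. At regions 38 to 41 it was 2.04 to 3.22 times the genome-wide background of the same list, whereas the median over all 127 domain peaks was 1.32 times. A background of at least 2 times the genome-wide one in some list was found at 12 of the 45 regions, namely 6, 8 to 12, 20, 38 to 41 and 45. Such a background lowers the fold for a given number of reads. Region 40 shows this, with 40, 52, 55 and 48 reads in myocytes deposited as MyoD-null and as wild type and in MyoD-null and wild-type myoblasts, but folds of 2.10, 2.94, 2.33 and 2.21. At regions 25 and 31, by contrast, the local background was at most 1.36 times the genome-wide one.

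**Figure D5:**
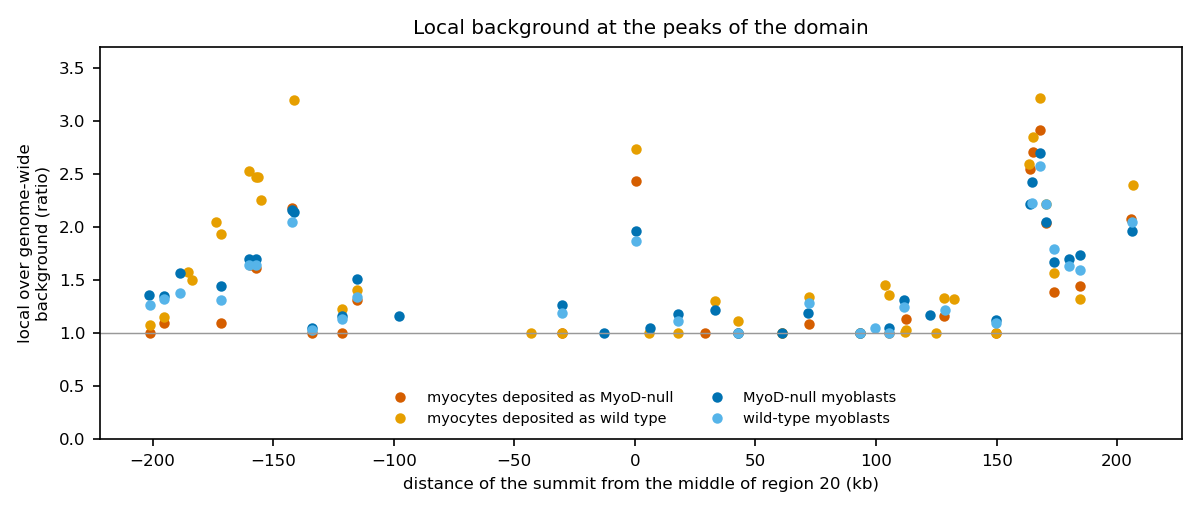
Local background at each domain peak divided by the genome-wide background of its list (vertical axis, ratio) against the distance of the summit from the middle of region 20 in kb (horizontal axis), 1 point per peak. Values of 2 or more lie at regions 6 and 8 to 12 on the left, at region 20, and at regions 38 to 41 and 45 on the right, with a maximum of 3.22.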

How the data were processed

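ATAC-seq samples of 4 groups, 3 each, were available as 1 peak list per group. The submitters' processing notes name mm9 as the build, and list MACS2 and deepTools with no version. The peak names, per the deposited lists, refer to merged alignments with a MAPQ30 tag. For the aligner, the caller's settings and any read shift for the transposase, the value is not given in the sources used here. The fold enrichment is a ratio at the summit as deposited by the authors, with −log10 p and −log10 q values that the authors' caller adjusted. The deposited score, which is the whole-number part of 10 times the −log10 q (within 1), was not used. Folds were ranked within lists and also set side by side between lists at shared regions, where differences in background and depth can move them.

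Peaks on the autosomes, X and Y were kept and grouped by the labels. A peak belonged to the domain by its summit. Lists were merged by overlaps of at least 1 bp, and a region took the fold of its highest peak. Reads at a summit and the local background were those that give both deposited values as (reads + 1) / (background + 1) and as a Poisson probability. They matched −log10 p to within 6.3e-05 in the domain, and the next best read number missed by at least 0.099. The genome-wide background came from the spacing of the 12 most frequent folds. Shares have 95% Wilson intervals (scipy 1.17.1). No test was possible. Regions were named if they were among the 8 with the highest mean fold, or among the 3 with the highest fold in their class of lists. Others, such as regions 1, 7, 8, 9, 18, 28, 31 and 39 to 42, were named after their values were seen. The domain, the lists and the comparisons were chosen with earlier results of these data known. Steps were tested on 20000 simulated peaks, and all 8 known quantities were recovered within 1%. Alternatives were a −log10 q of at least 5, a fold of at least 5, lists trimmed to the shortest (88233 peaks with the highest −log10 p), summits within 250 bp, a reciprocal overlap of 50%, membership by overlap, mean folds, ratios minus the genome-wide median, and genotypes read from peak names. Coordinates count from 1. Scripts ran in Python 3.11.15 with pandas 2.3.3, numpy 2.4.6 and matplotlib 3.10.9.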

Additional observations from a re-analysis of the deposited data

Results flagged for a closer look

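With the deposited genotypes, the net number of domain peaks found only in myocytes minus only in myoblasts was -6 in MyoD-null cells and 9 in wild-type cells, which are of opposite sign. The difference was not tested, since each group has 1 list. The whole lists showed the same pattern. In MyoD-null cells, 16.2% of all myocyte peaks and 24.7% of all myoblast peaks had no overlap, and in wild-type cells it was 30.0% of myocyte and 18.0% of myoblast peaks. With lists of equal length the opposite signs were lost. MyoD-null cells then had 5 of 27 domain peaks only in myocytes and 3 of 26 only in myoblasts. Wild-type cells had 9 of 28 only in myocytes and 5 of 23 only in myoblasts. The shares over all peaks of the trimmed lists are not given here. The domain peak numbers of the lists themselves differed by -7 in MyoD-null cells and 10 in wild-type cells. By the peak names, the net numbers were 4 in MyoD-null and -1 in wild-type cells.

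The log2 ratio of fold enrichments, myocytes over myoblasts, had opposite signs in the 2 genotypes as deposited at 4 of 22 regions in all lists (18.2%, against 29.1% genome-wide), and these differences were not tested. Region 9 had -0.017 in MyoD-null and 0.28 in wild-type cells. Region 32 had -0.066 in MyoD-null and 0.16 in wild-type cells. Its highest summits were at 150593894 and 150593828 in MyoD-null and wild-type myoblasts. They were at 150594669 and 150594689 in myocytes deposited as MyoD-null and as wild type. The ratios of region 32 thus compare different summits. Region 40 had -0.15 in MyoD-null and 0.41 in wild-type cells. Region 42 had -0.12 in MyoD-null and 0.47 in wild-type cells. With genotypes read from the peak names, both signs were reversed at regions 32, 40 and 42 and unchanged at region 9. At region 42, wild-type myocytes then had a fold of 3.99 against 4.10 in wild-type myoblasts. MyoD-null myocytes had 5.69 against 4.32 in MyoD-null myoblasts. These values thus do not tell which genotype gained or lost signal at those 3 regions.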

How the results depend on the processing

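No paired analysis was possible because replicates were merged before peak calling, and for the same reason no replicate could be left out. Of 104 values recomputed for 17 results, 81 kept their direction and, for counts, stayed within 1.5 times of the reported value, 21 counts moved further and 2 changed sign. Some of these values were fixed in advance. Reading the peak names does not alter the myoblast comparison, and it inverts the median ratio between the myocyte lists, which is among the 2 sign changes. Trimming leaves the shortest list, myocytes deposited as MyoD-null, unchanged. With a fold of at least 5, the domain peaks numbered 7 in myocytes deposited as MyoD-null, 17 in those deposited as wild type, 5 in MyoD-null myoblasts and 4 in wild-type myoblasts, and 4 regions were in all lists. Peaks without overlap at that fold numbered 0 in both myoblast lists relative to their myocytes, and 1 in MyoD-null and 0 in wild-type myoblasts relative to each other. In myocytes deposited as MyoD-null they numbered 2 of 7 relative to MyoD-null myoblasts and 0 relative to the other myocytes. In myocytes deposited as wild type they numbered 13 of 17 relative to wild-type myoblasts and 10 of 17 relative to the other myocytes. The shares over all peaks at that fold are not given here. Fewer peaks remain at that fold by construction. With lists of equal length, peaks without overlap numbered 5 of 27 in myocytes deposited as MyoD-null and 3 of 26 in MyoD-null myoblasts. Between the myocyte lists, they numbered 7 of 27 in those deposited as MyoD-null and 7 of 28 in those deposited as wild type. With a reciprocal overlap of 50%, which can only raise such counts, they numbered 5 of 27 and 16 of 38 in the same order. By summits within 250 bp they numbered 4 of 27 and 15 of 38. Relative to MyoD-null myoblasts, myocytes deposited as MyoD-null had 5 of 27 by summits. The shares over all peaks under these settings are not given here. Read by peak names, peaks without overlap were 10 in MyoD-null and 3 in wild-type myocytes relative to their myoblasts, and 12 in MyoD-null and 2 in wild-type myocytes relative to each other. The median log2 ratio for loss of MyoD in myocytes was then 0.32. For loss of MyoD in myoblasts it was 0.0091 with a reciprocal overlap of 50%, so its sign is not settled. Minus the genome-wide median, the ratios were 0.024 for MyoD-null and 0.096 for wild-type differentiation. A −log10 q of at least 5, membership by overlap and mean folds changed no direction and moved no count by over 1.5 times. The cause of these changes was not tested, and a region missing from a list may lie under its detection limit.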
